A study of Arabidopsis thaliana with 4 samples.

Results

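WRKY transcription factors were examined in 14-d-old Arabidopsis thaliana, in wild-type (WT) plants and in vip3 mutants. The study's methods name aerial tissue of soil-grown plants for its chromatin immunoprecipitation, and name no tissue for its expression arrays. The plants of the mutant group were homozygous for the null allele vip3-1, and WT plants carried no named allele; the sources used here do not name the accession of the plants. VIP3 is a WD-repeat protein of the plant Paf1 complex (Paf1C), which travels with elongating RNA polymerase II. Each genotype was represented by 2 Affymetrix ATH1 arrays, and each array read a pool of 3 independently derived samples of over 100 plants each, so the spread between arrays was that between pools. Members were the probe sets whose only gene symbol in the array annotation is WRKY followed by a number. There were 6 among 22810 probe sets, and they read WRKY6, WRKY20, WRKY22, WRKY42, WRKY47 and WRKY53. The RefSeq gene table for Arabidopsis holds 71 genes with such a symbol or synonym. Most of the family was therefore not followed here, because 8794 probe sets have no symbol in the annotation and any that read a WRKY gene could not be assigned.

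WRKY proteins are plant transcription factors named for a conserved stretch of amino acids in their DNA-binding domain, which also holds a zinc finger. They bind W-box elements in promoters, and many of them are induced by pathogens, wounding or ageing of the leaf. The family is divided into groups by the number of WRKY domains and the type of zinc finger. Group I proteins such as WRKY20 have a pair of WRKY domains. WRKY6, WRKY42 and WRKY47 belong to group IIb, WRKY22 to group IIe and WRKY53 to group III. By their locus identifiers, 5 of the 6 members lie on chromosome 4 (83.3%) and WRKY6 lies on another, whereas 16 of the 71 WRKY genes in RefSeq (22.5%) and 14.7% of all named probe sets lie on chromosome 4. The members measured are thus not an even sample of the family.

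None of the 6 WRKY genes changed detectably in vip3. In limma 0 of the 6 had an adjusted p under 0.05, where 9.8% of all 22746 tested probe sets did, and 1 of the 6, WRKY47, had an unadjusted p under 0.05, where 23.7% did. At the thresholds named in the study's methods, an unadjusted p under 0.001 with a 2-fold change, 0 of the 6 and 1.56% of all probe sets passed. The mean log2 signal of all 6 was nevertheless higher in vip3 than in WT, as it was for 50.1% of all probe sets, but this count includes WRKY42, whose signals were too low to be compared and whose log2 fold change was -0.15 with quantile normalization, which left 5 of the 6 higher. Without WT replicate 1 or vip3 replicate 1 it was 4 of the 6. Their log2 fold changes ran from 0.03 to 0.71 with a median of 0.49, beside a median of 0 over all probe sets. For WRKY6, WRKY20 and WRKY47 both vip3 arrays lay above both WT arrays (3 of 6 members, where 25.9% of all probe sets did so), and no member had both vip3 arrays below both WT arrays (26.3% of all probe sets). The members were read on the same 4 arrays and are not replicates of one another. In tissue of mixed cells a change in the share of a cell type and a change in transcript per cell cannot be told apart.

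**Figure D1:**
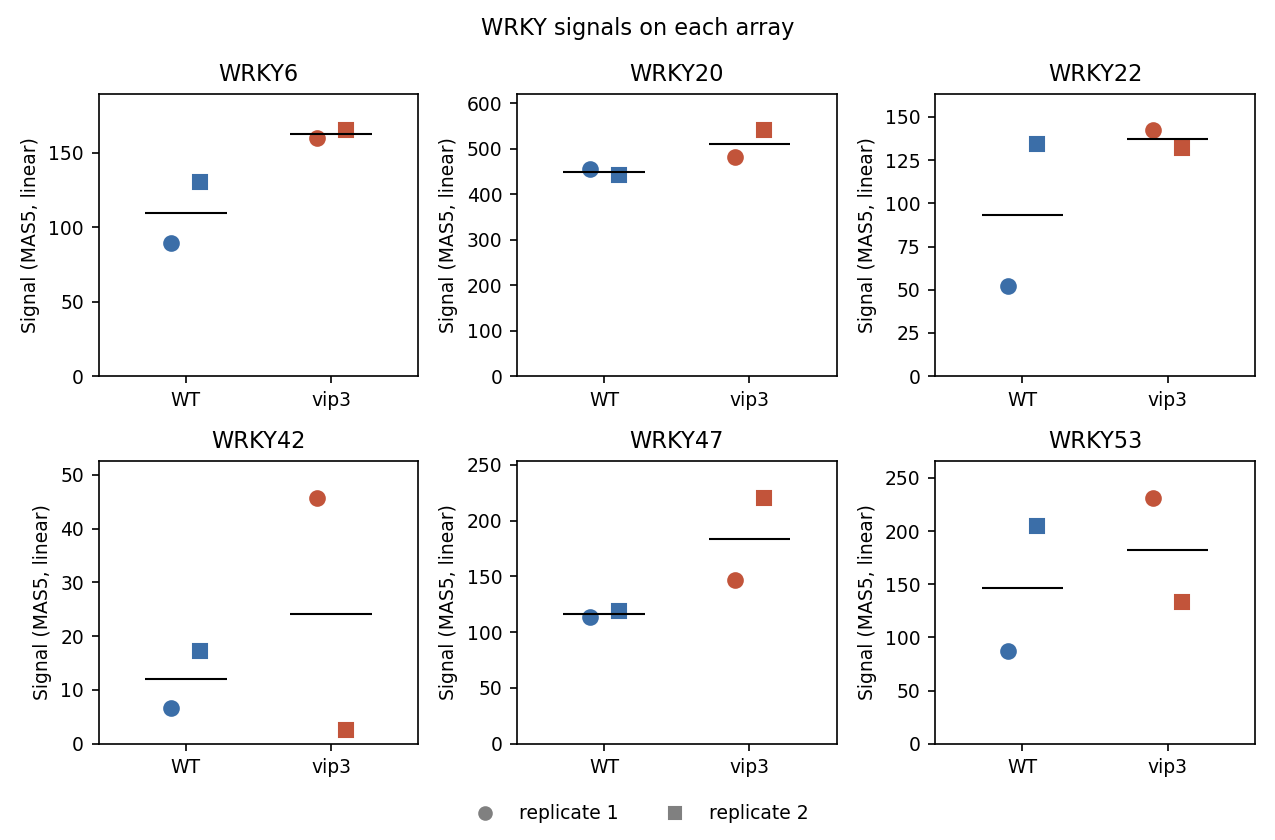
Signals of the 6 WRKY probe sets (MAS5, linear scale, each panel with its own axis from 0) on the 2 WT arrays and the 2 vip3 arrays; points are single arrays and lines are means. WT replicate 1 is the lowest point for WRKY6, WRKY22, WRKY47 and WRKY53. The 2 genotypes do not overlap for WRKY6, WRKY20 and WRKY47, where 52.2% of all probe sets do not overlap in either direction.

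Of the group IIb genes, WRKY6 (AT1G62300), which acts in leaf senescence, defence and the control of phosphate transport, had signals of 89.1 and 130.1 on WT replicates 1 and 2 and of 159.5 and 164.9 on vip3 replicates 1 and 2. The vip3 arrays lay close together and above both WT arrays, while the WT arrays differed 1.46-fold. The means were 109.6 ± 29 (SD, n = 2) in WT and 162.2 ± 3.82 in vip3. Fold differences here and below were taken from the log2 signals, so they are not ratios of the linear means. For WRKY6 the fold difference was 1.51, with a 95% interval from 0.997 to 2.28 (log2 fold change 0.59 ± 0.26 SE). It did not pass in limma (adjusted p = 0.21).

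WRKY47 (AT4G01720) gave 113.6 and 118.6 on the WT arrays against 147.1 and 220.4 on the vip3 arrays. Here the WT arrays nearly coincided and the vip3 arrays were both higher but differed 1.5-fold from each other. The means were 116.1 ± 3.54 in WT and 183.8 ± 51.8 in vip3. Among the 6 genes, WRKY47 alone had a 95% interval of the fold difference wholly above no change, from 1.04 to 2.32 around 1.55. Over all probe sets it did not pass (limma adjusted p = 0.18). Its unadjusted p in limma was 0.037, and 0.086 with a constant prior variance. With each array left out its log2 fold change ranged from 0.34 to 0.93.

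WRKY42 (AT4G04450), which like WRKY6 takes part in phosphate homeostasis, gave signals too low to be compared. They were 6.6 and 17.3 in WT and 45.7 and 2.6 in vip3. The highest and the lowest of the 4 values both came from vip3 arrays, which differed 17.6-fold, so that any change was lost within the genotype. The interval of its fold difference ran from 0.106 to 9.83, and its log2 fold change was 0.03 ± 1.4 SE (limma adjusted p = 0.99). Leaving out vip3 replicate 1 turned it to -2.04, and leaving out vip3 replicate 2 to 2.1.

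WRKY22 (AT4G01250) is a target of the MAP kinase cascade that follows perception of bacterial flagellin and also acts in dark-induced senescence. Its signals were 52.3 and 134.6 in WT, against 142.2 and 132.1 in vip3. WT replicate 2 lay between the vip3 arrays, and WT replicate 1 alone was low. The means were 93.4 ± 58.2 in WT and 137.1 ± 7.14 in vip3. The log2 fold change, 0.71 ± 0.43 SE, was the largest of the 6 but did not pass (limma adjusted p = 0.39). Without WT replicate 1 the log2 fold change was 0.03, and without WT replicate 2 it was 1.39 (limma adjusted p = 0.98 and 0.074).

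WRKY53 (AT4G23810) is a regulator of the onset of leaf senescence. Its signals were 87.5 and 204.7 in WT, against 231.2 and 132.8 in vip3, so that the genotypes interleaved: the lowest array was WT and the highest vip3, with 1 array of each between them. The means were 146.1 ± 82.9 in WT and 182 ± 69.6 in vip3. The fold difference from the log2 signals was 1.31, with a 95% interval from 0.66 to 2.6 (limma adjusted p = 0.66). The direction depended on single arrays. The log2 fold change of 0.39 ± 0.42 SE became -0.22 once WT replicate 1 was removed and -0.01 once vip3 replicate 1 was, and it was 1 when WT replicate 2 was left out and 0.79 when vip3 replicate 2 was.

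WRKY20 (AT4G26640), the single group I member, was the most closely determined. Its signals were 456 and 441.7 in WT, against 482.2 and 540 in vip3, with both vip3 arrays above both WT arrays by a small margin. The means were 448.9 ± 10.1 and 511.1 ± 40.9. The fold difference of 1.14 had a 95% interval from 0.963 to 1.34 (limma adjusted p = 0.34). WRKY20 was the single gene of the 6 whose interval excluded a 2-fold change in both directions. For 5 of the 6, all but WRKY42, the interval excluded a 2-fold fall, whereas a 2-fold rise was excluded for WRKY20 alone.

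**Figure D2:**
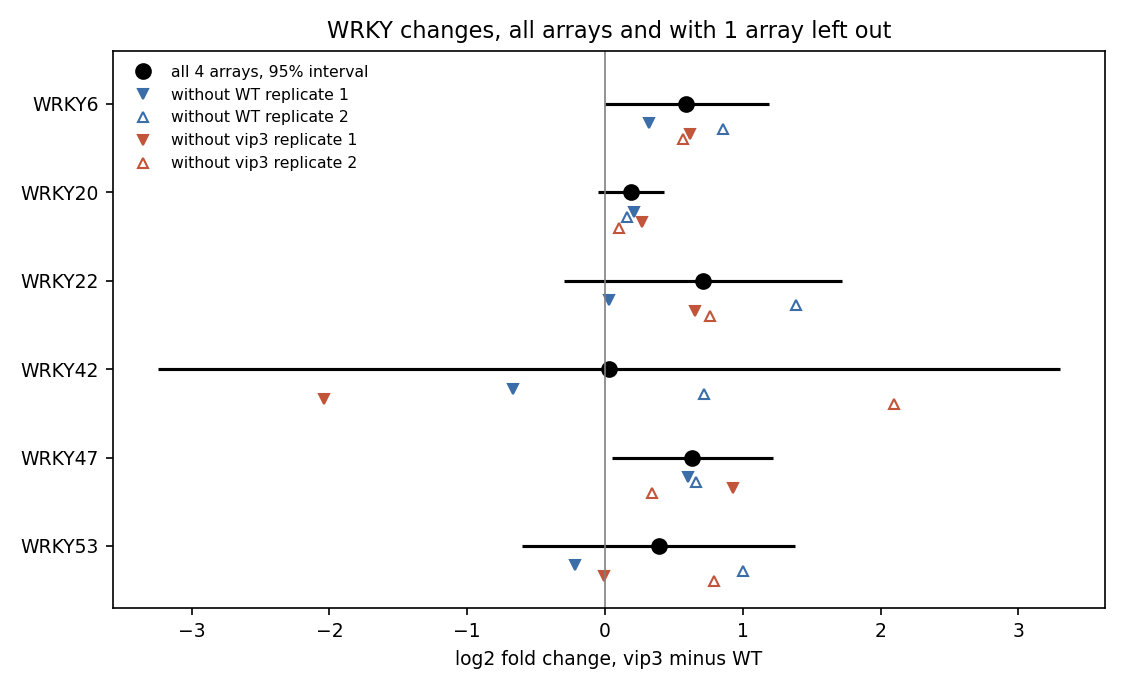
Log2 fold change (vip3 minus WT) of each WRKY gene with all 4 arrays (black points, lines are 95% intervals from limma) and with each array left out (triangles). The intervals of all genes but WRKY47 reach 0 or cross it, and WRKY42 and WRKY53 change sign when WT replicate 1 or vip3 replicate 1 is left out.

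Some of these genes varied widely between the arrays of 1 genotype. Each was set beside the 1000 probe sets nearest to it in mean log2 signal. The WT arrays of WRKY22 differed by 1.36 on the log2 scale and those of WRKY53 by 1.23, where the medians of such differences were 0.23 and 0.2. For each of these genes 1.4% of the 1000 nearest probe sets had WT arrays as far apart. The vip3 arrays of WRKY53 also differed widely, by 0.8, which 1.7% of the nearest probe sets reached. The vip3 arrays of WRKY42 differed by 4.14, which 3.3% of the nearest probe sets reached. WRKY6 had a WT difference of 0.55, reached by 9.7%, and WRKY47 a vip3 difference of 0.58, reached by 6.3%. WRKY20 was within the usual spread in both genotypes, with differences of 0.05 and 0.16.

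WT replicate 1 lay below WT replicate 2 for 5 of the 6 genes, all but WRKY20, and for 46.3% of all probe sets. It was the lowest of the 4 arrays for WRKY6, WRKY22, WRKY47 and WRKY53, and for 23.5% of all probe sets. For WRKY22, WRKY42 and WRKY53 WT replicate 2 had at least 2 times the signal of WT replicate 1, as it did for 7.3% of all probe sets. Without WT replicate 1 the log2 fold changes were 0.32 for WRKY6, 0.21 for WRKY20, 0.03 for WRKY22, -0.67 for WRKY42, 0.6 for WRKY47 and -0.22 for WRKY53, so that 4 of the 6 remained higher in vip3.

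**Figure D3:**
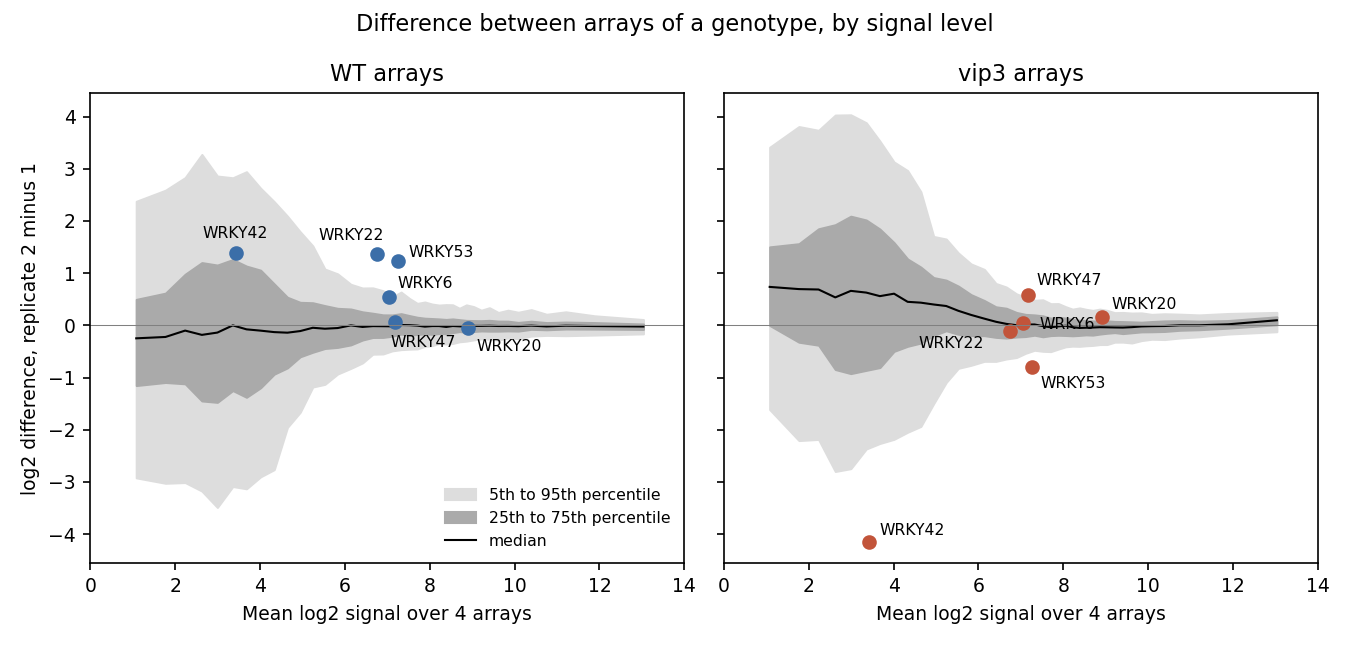
Log2 difference between the 2 arrays of a genotype (replicate 2 minus replicate 1) against the mean log2 signal over all 4 arrays; bands and line give percentiles and the median over 22746 probe sets in bins of level, and points are the 6 WRKY genes. WRKY22 and WRKY53 lie well above the 95th percentile band in WT and WRKY6 lies at its edge, and in vip3 WRKY47 lies above that band and WRKY42 and WRKY53 below the 5th percentile.

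Over all probe sets WT replicate 1 did not stand apart from the other arrays. Log2 signals, compared across probe sets that are not independent of one another, correlated at 0.953 between the WT arrays, at 0.95 between the vip3 arrays and at 0.941 to 0.946 between genotypes. The ratio of 3' to 5' signal of the GAPDH control, a measure of RNA integrity, was highest, 1.81, on WT replicate 1 and 1.51 to 1.63 on the others; its part in the low WRKY signals of that array was not tested. Leaf genes were strongly expressed in both genotypes: RCA, PSAE-1, LHCB4.2 and LHCB4.1 gave values between 16686.7 and 24728.1. The root gene PYK10 fell from 4738.8 and 5739 in WT to 2687.2 and 3228.2 in vip3 (limma adjusted p = 0.0062). The root-hair gene EXPA7 had signals from 27.2 to 57.5 and did not pass. The anther gene A9 (AT5G07230) gave low signals, 16.3 and 4.9 in WT against 39.6 and 22.6 in vip3. Both vip3 arrays lay above both WT arrays, as for 25.9% of all probe sets, but A9 did not pass (limma adjusted p = 0.29). Whether root-derived transcript had a part in the WRKY signals was not tested.

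WRKY1 was read by a probe set under its other name, ZAP1 (AT2G04880), and so was not among the 6; it was added after its values were seen. Its signals were 565.2 and 535.1 in WT, against 681.1 and 728.7 in vip3, with no overlap between genotypes. The rise was 1.28-fold (log2 fold change 0.36 ± 0.09 SE) and passed narrowly in limma (adjusted p = 0.048). It passed under 3 of 11 alternatives. Its adjusted p was 0.12 to 0.21 when any 1 array was left out, 0.29 with a constant prior variance, 0.061 with robust eBayes or an offset of 16 and 0.055 with the replicate block, while its log2 fold change stayed between 0.31 and 0.41.

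Genes that act around the WRKY factors were counted from 6 lists with 115 entries, covering MAP kinase cascades and immune receptors, VQ-motif proteins, salicylate, camalexin, jasmonate and leaf senescence. Only 9 of these had a named probe set, and none of the camalexin list did. In limma 1 of the 9 was higher and 2 were lower in vip3 at an adjusted p under 0.05, where 4.73% and 5.07% of all probe sets were. Their median log2 fold change was 0.01.

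Of the list of MAP kinase cascades and immune receptors, BIK1 rose and EFR did not pass. BIK1, a cytoplasmic kinase that relays signals from immune receptors, gave 406.5 and 544.9 on the WT arrays against 865.2 and 814 on the vip3 arrays. Both vip3 arrays lay well above both WT arrays, a 1.78-fold rise (log2 fold change 0.83 ± 0.14 SE, limma adjusted p = 0.011). Its adjusted p was 0.14 without vip3 replicate 1, 0.12 without vip3 replicate 2 and 0.25 with a constant prior variance. EFR, the receptor of bacterial elongation factor Tu, read 56.1 and 36.3 (WT) against 41.1 and 40.3 (vip3) (adjusted p = 0.91).

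Of the salicylate list, SAG101, a partner of EDS1 in immune signalling, gave 94.7 and 99.2 on the WT arrays against 170 and 154.1 on the vip3 arrays. The genotypes were well separated, with a 1.67-fold difference (95% interval 1.16 to 2.4), but the adjusted p in limma was 0.088. It was 0.036 when the dimmest 40% of probe sets were left out. GRX480, a glutaredoxin that interacts with TGA factors, read 95.9 and 136.3 (WT) against 115.4 and 115.6 (vip3), with means of 116.1 ± 28.6 and 115.5 ± 0.141. The measured gene of the VQ list was IKU1, which encodes a VQ-motif protein of seed development. It read 244.5 and 246.5 (WT) against 274.9 and 331.9 (vip3), and did not pass (adjusted p = 0.27).

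**Figure D4:**
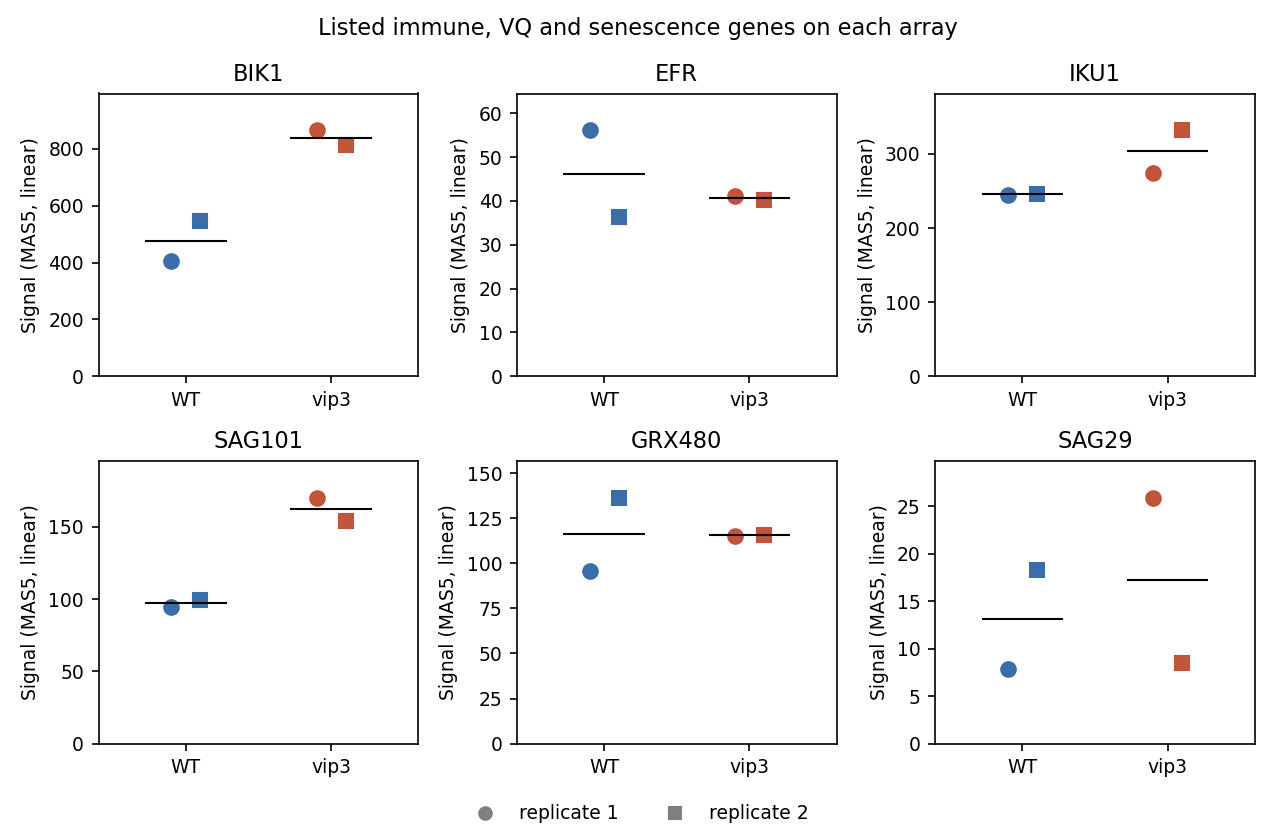
Signals (MAS5, linear scale, each panel with its own axis from 0) of the 6 listed genes outside the jasmonate list that had a named probe set; points are single arrays and lines are means. The genotypes do not overlap for BIK1, IKU1 and SAG101, of which BIK1 passed in limma. Over all probe sets 52.2% do not overlap in either direction.

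The measured gene of the senescence list, SAG29, encodes a sugar transporter of the SWEET family. It gave 7.9 and 18.3 on the WT arrays against 25.9 and 8.5 on the vip3 arrays and did not pass (adjusted p = 0.9). Like WRKY53 its genotypes interleaved, and its direction turned without WT replicate 1 or vip3 replicate 1 (log2 fold changes of -0.3 and -0.5 against 0.3 with all arrays). The 2 listed genes that fell were defensin genes of the jasmonate list. PDF1.2 read 560.7 and 276.4 (WT) against 76.8 and 41.5 (vip3) (limma adjusted p = 0.0059). PDF1.2b, whose probe set holds probes that also match other genes, read 514.3 and 125.5 (WT) against 13.8 and 19.5 (vip3) (adjusted p = 0.01). With such probe sets left out PDF1.2b was not tested, and 2 listed genes were called. The falls of PDF1.2 and PDF1.2b may therefore not be separate. The thionin gene THI2.1 of the same list read 86.5 and 46.3 (WT) against 43.5 and 70.6 (vip3) and did not pass (adjusted p = 0.87). For both defensins, as for BIK1, the call was lost without vip3 replicate 1 (adjusted p = 0.055 for PDF1.2 and 0.12 for PDF1.2b) or vip3 replicate 2 (0.089 and 0.1), and that of PDF1.2b also without WT replicate 1 (0.082). With a constant prior variance the adjusted p was 0.22 for PDF1.2 and 0.23 for PDF1.2b.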

How the data were processed

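The authors deposited linear signal intensities from the MAS5 algorithms, which correct background and mismatch hybridisation and scale each array as a whole. Low signals therefore have large relative errors. Medians were 172.1 to 175.7 per array. The sources used here give no software version, and detection calls were not used. Precision is limited by the number of arrays.

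Control probe sets (64) were excluded. Log2 signals were compared, vip3 minus WT, with limma 3.58.1 in R 4.3.3 (lmFit, eBayes with a variance trend, 7.5 degrees of freedom), with Benjamini-Hochberg adjustment over 22746 probe sets. The study's methods name limma, on GCRMA values not used here. The p-values measure the spread between pools, and that of each gene was moderated by the trend over all probe sets. Of the 7.5 degrees of freedom, 5.5 came from this prior. A permutation of 2 against 2 arrays cannot go below p = 0.333, so none was run. The script was tested on simulated data.

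Symbols came from GEO's platform annotation and RefSeq (TAIR10.1), which matched 6 of 6 members. Full values were given for WRKY53, for members under a p of 0.05, and for the 5 brightest and 5 most changed, and listed genes were named where they passed; with so few, all members and all measured listed genes are given. Members and lists were chosen with earlier results of these data known. Alternatives covered the variance model, an offset of 16, quantile normalization, 2 filters, the replicate block and removal of each array.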

Additional observations from a re-analysis of the deposited data

How the results depend on the processing

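Under all 11 alternatives with an adjusted p under 0.05, and at the thresholds named in the study's methods (unadjusted p under 0.001 and a 2-fold change), 0 WRKY genes were called. WRKY42 was not tested without the dimmest 40% of probe sets. WRKY6, WRKY20, WRKY22 and WRKY47 stayed higher in vip3 under every alternative run. The log2 fold change of WRKY42 was -0.15 with quantile normalization. With each array left out it ranged from -2.04 to 2.1 for WRKY42 and from -0.22 to 1 for WRKY53. Over all probe sets 2229 were called. This count was 0 with a constant prior variance (3798 then had an unadjusted p under 0.05, against 5399 with the trend), 354 at the thresholds of the methods and 442 to 1332 with each array left out. Listed genes called numbered 3, but 0 with a constant prior variance and 0 to 3 with each array left out. EFR, GRX480, THI2.1 and SAG29, none of which passed, changed sign when arrays were left out: the log2 fold change ranged from -0.46 to 0.16 for EFR, from -0.24 to 0.27 for GRX480, from -0.64 to 0.26 for THI2.1 and from -0.5 to 1.11 for SAG29. The replicate block called 0 WRKY genes and 3 listed genes; ZAP1 had an adjusted p of 0.055 with it. Same-numbered arrays deviated with a correlation of -0.044, and were therefore treated as unpaired. With 2 arrays per genotype, a 2-fold rise lay within the 95% interval of every WRKY gene but WRKY20.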
